A study of Mus musculus with 4 samples.

Results

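The genes described here are the Wnt ligands, the Frizzled receptors with their co-receptors Lrp5 and Lrp6, and the secreted inhibitors of the Frzb, Sfrp and Dkk families. They were picked by gene symbol, with earlier results of these data known, and only probe sets that name a single gene were used. The choice gave 40 of the 18193 genes on the array: 19 ligands, 12 receptors or co-receptors and 9 inhibitors, read by 78 probe sets. They were measured on Affymetrix mouse arrays in 4 groups with 1 array each. The groups were Snai1 knockout embryoid bodies at day 5, control embryoid bodies at day 5, Snai1 knockout teratomas at week 6 and control teratomas at week 6. Snai1 encodes a zinc-finger repressor known for its part in epithelial-mesenchymal transition and gastrulation. The control cells are labelled F/F.

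Embryoid bodies are aggregates of embryonic stem cells. They were started in hanging drops, moved to suspension and left to differentiate spontaneously. Teratomas are tumours of mixed tissues. They grew from stem cells injected subcutaneously in the hind limbs of 6-week-old male nude mice. Nude mice lack a thymus and have few T cells, but keep other blood cells, vessels and stroma, so tumour RNA can include host RNA. Whether an RNA came from 1 tumour or from several, and whether each genotype was 1 stem cell clone, is not given in the sources used here. RNA came from columns for embryoid bodies and from Trizol for teratomas, so tissue and extraction method cannot be told apart. With no replicates, no difference below has a test or a replicate check.

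Wnt proteins are secreted ligands that bind Frizzled receptors, and Lrp5 or Lrp6 joins the complex when the signal runs through beta-catenin. Frzb and the Sfrp proteins carry a Frizzled-like domain and bind Wnt ligands outside the cell, while Dkk1, Dkk2 and Dkk4 act on Lrp5 and Lrp6. In the mouse embryo, Wnt signalling is needed for the primitive streak, and Dkk1, Sfrp1 and Sfrp5 are made in the anterior visceral endoderm, which restrains it.

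The deposited values are log2 expression values made by RMA, which subtracts background, puts arrays on a common scale and combines the probes of a probe set. A floor was set for each array at the median over non-control probe sets, and it lay at 4.73 in knockout embryoid bodies, 4.71 in control embryoid bodies, 5.04 in knockout teratomas and 5.08 in control teratomas. Values below the floor were set to it, and a difference with 1 array below the floor is a bound. All differences are on the log2 scale, and a gene is called higher or lower here at a difference of 1 or more, which is 2-fold. Levels of different genes are not set against each other, since probes differ in their response. The correlation across probe sets was 0.982 between the embryoid body arrays, 0.985 between the teratoma arrays and 0.864 to 0.880 between tissues. The difference between the 3' and 5' Gapdh control probe sets, a sign of RNA integrity, was 0.10 in knockout and 0.17 in control embryoid bodies, and 0.40 in knockout and 0.65 in control teratomas. All 8 epiblast markers were at or above the floor on both embryoid body arrays, and all 8 neuronal markers on both teratoma arrays.

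The probe set for Snai1 read 3.45 in knockout and 4.78 in control embryoid bodies, and 3.44 in knockout and 3.59 in control teratomas. Of these values, the one in control embryoid bodies stood above its floor, and the bound on the difference there was -0.05. The place of the probes relative to the deletion is not given, so the knockout labels could not be checked closely from it. The related repressor Snai2 read 9.07 in knockout and 10.59 in control embryoid bodies, and 7.15 in knockout and 8.43 in control teratomas. A second Snai2 probe set gave -1.40 in embryoid bodies and a bound of -0.24 in teratomas. Snai3 read 5.26 in knockout and 4.92 in control embryoid bodies, a difference of 0.34, and was below the floor in both teratomas.

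Of the 40 genes, 21 were at or above the floor on all 4 arrays, 8 on 1 to 3 arrays and 11 on none. Genes below the floor on every array made up 27.5% of the set and 26.9% of all genes. The 11 were the ligands Wnt1, Wnt2b, Wnt3, Wnt3a, Wnt8a, Wnt9b, Wnt10a, Wnt10b and Wnt16 and the inhibitors Dkk4 and Sfrp4. All 12 receptors and co-receptors cleared the floor somewhere, and 10 of them did so on all 4 arrays. Wnt3, a ligand needed to form the primitive streak, read 3.25 in knockout and 3.50 in control embryoid bodies. Wnt3a, known for its part in paraxial mesoderm, read 4.17 in both. Both ligands lay below the floor, where these arrays give no order. In the RefSeq gene order, 4 pairs of the ligands are direct neighbours: Wnt6 with Wnt10a, Wnt3a with Wnt9a, Wnt9b with Wnt3, and Wnt10b with Wnt1. Among those neighbours, Wnt9a reached the floor on all 4 arrays and Wnt6 in knockout embryoid bodies, and the rest stayed below it. The other probe set of Wnt9a and that of Wnt6 lay below the floor on all 4 arrays.

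**Figure D1:**
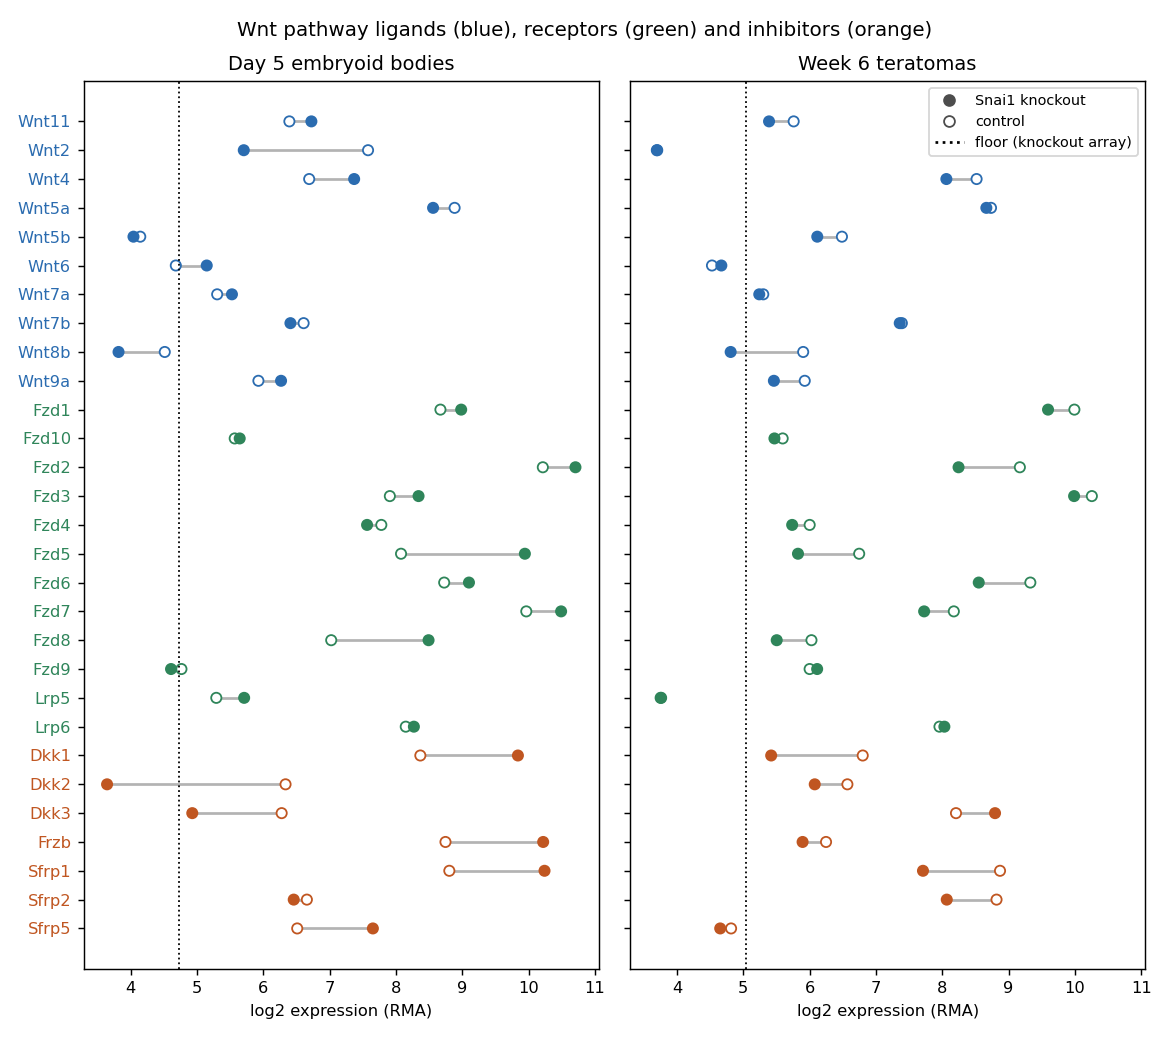
Level of each gene that reached the floor on at least 1 array, as log2 expression (x axis), in day 5 embryoid bodies and week 6 teratomas. Filled circles are the knockout and open circles the control, 1 array each; the dotted line is the floor of the knockout array; names are blue for ligands, green for receptors and orange for inhibitors. In embryoid bodies the filled circle lies to the right for Dkk1, Frzb, Fzd5, Fzd8, Sfrp1 and Sfrp5, and in teratomas it lies to the left for most genes.

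In day 5 embryoid bodies, 4 secreted inhibitors and 2 receptors were more than 2-fold higher in the knockout, and 2 other inhibitors and 1 ligand were more than 2-fold lower. The higher genes were the inhibitors Dkk1, Frzb, Sfrp1 and Sfrp5 and the receptors Fzd5 and Fzd8, with folds of 2.21 to 3.65. The lower genes were Dkk2, Dkk3 and Wnt2. In all, 27 of the 40 genes reached the floor in the knockout, the control or both. The 6 higher genes made up 22.2% of those 27, against 2.18% of all 12282 genes measured in the same way. The 3 lower genes made up 11.1%, against 3.98% of all genes. The median difference over the 27 was 0.34 and that over all genes 0.026, with 19 of the 27 above 0 and 8 below. Of the 27, 3 rest on 1 array above the floor: Dkk2, Wnt6 and Fzd9.

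Among the inhibitors, Dkk1, which blocks the Lrp5 and Lrp6 co-receptors, read 9.84 in knockout and 8.37 in control embryoid bodies, 2.77-fold higher in the knockout. Its other probe set differed by 1.85. Frzb, a secreted Frizzled-related protein that binds Wnt ligands, read 10.22 in knockout and 8.75 in control embryoid bodies, 2.78-fold higher, and its other probe set differed by 2.43. Every Dkk1 and Frzb probe set therefore lay above 1 in this comparison.

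Sfrp1, of the same Wnt-binding family, read 10.24 in knockout and 8.80 in control embryoid bodies, 2.71-fold higher in the knockout. Its 5 probe sets ranged in difference between 0.96 and 2.33, so they agreed in direction and 1 fell just short of 2-fold. Sfrp5 read 7.65 in knockout and 6.51 in control embryoid bodies, 2.21-fold higher, and its other probe set differed by 1.62. The pooled SD between probe sets of a gene was 0.35 over the 12 genes of the set that had several, and 0.29 over all genes. That SD shares the RNA and the array, and holds no variation between cultures.

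Among the other measured inhibitors, Dkk2 and Dkk3 were lower and Sfrp2 was nearly level. Dkk2, a relative of Dkk1 that also binds Lrp6, read 3.64 in knockout embryoid bodies, below the floor, and 6.33 in control embryoid bodies, so it was at least 3.04-fold lower in the knockout. Dkk3, a divergent family member that does not act on Lrp6 as Dkk1 does, read 4.93 in knockout and 6.28 in control embryoid bodies, 2.55-fold lower, with -1.52 for its other probe set. Both differences depend on where the floor is set. With the floor at the 65th percentile of each array, the bound was -0.09 for Dkk2 and -0.03 for Dkk3. With no floor, Dkk2 differed by -2.69 and Dkk3 by -1.35. Sfrp2 read 6.46 in knockout and 6.66 in control embryoid bodies. The median over the 7 measured inhibitors was 1.14, but it was 0.12 with no floor, since the list then takes in Dkk4 and Sfrp4.

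Among the receptors, Fzd5 read 9.94 in knockout and 8.08 in control embryoid bodies. It was 3.65-fold higher in the knockout, the largest positive difference of the set, and its other probe set gave a bound of 1.19. Fzd8, closest to Fzd5 in the Frizzled family, read 8.49 in knockout and 7.02 in control embryoid bodies, 2.77-fold higher, and its other probe set gave a bound of 0.53. The remaining 10 receptors and co-receptors differed by less than 2-fold. Fzd7, a receptor abundant in embryonic stem cells, read 10.49 in knockout and 9.96 in control embryoid bodies. Fzd4 and Fzd9 were the receptors with differences below 0, at -0.22 and -0.03. The co-receptor Lrp6 differed by 0.12 and Lrp5 by 0.42. The median over the 12 receptors was 0.40.

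Among the ligands, Wnt2, known for its part in placental and lung development, read 5.70 in knockout and 7.58 in control embryoid bodies, 3.67-fold lower in the knockout. Dkk2, known only as a bound of -1.60, cannot be ranked against it. The other 7 measured ligands lay between -0.32 for Wnt5a and 0.68 for Wnt4. Wnt4, needed for kidney and female reproductive tract development, read 7.37 in knockout and 6.69 in control embryoid bodies. Wnt5a, the ligand best known for signalling without beta-catenin, read 8.56 in knockout and 8.88 in control embryoid bodies. Wnt11, another ligand of that kind, read 6.72 in knockout and 6.39 in control embryoid bodies. The ligand median was 0.28, but it was -0.04 when the mean of a gene's probe sets was taken.

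**Figure D2:**
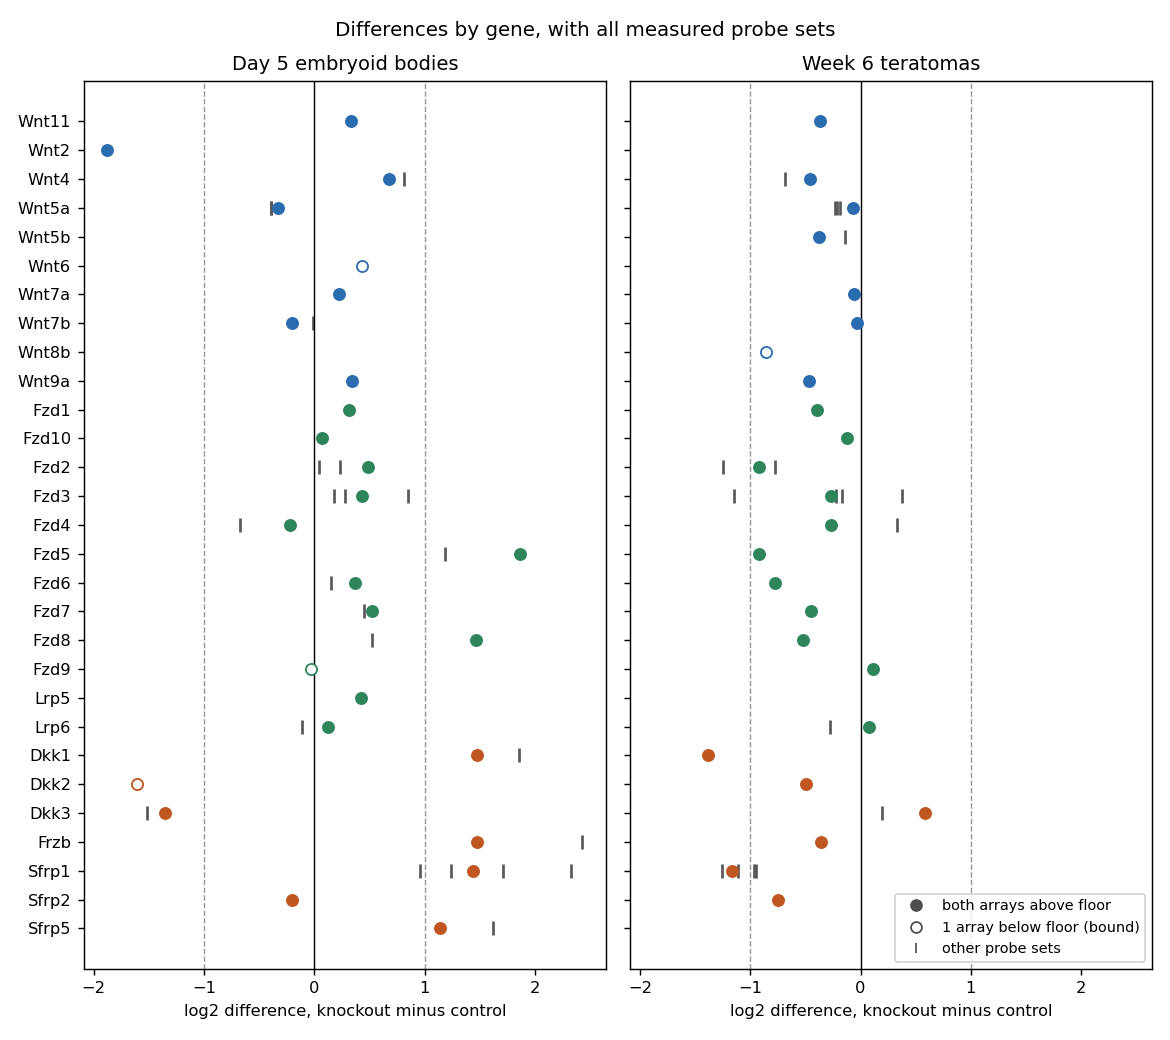
Log2 difference, knockout minus control (x axis), of every gene of the set that reached the floor in the knockout, the control or both, in embryoid bodies and teratomas. Large points are the probe set that stands for the gene and small points its other probe sets; dashed lines mark 2-fold; blue is ligands, green receptors and orange inhibitors. In embryoid bodies 6 genes lie beyond 2-fold on the right and 3 on the left, and in teratomas Dkk1 and Sfrp1 lie beyond 2-fold on the left.

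These differences stood beside large ones in cell type markers. Over all genes, 3.98% were 2-fold or more lower in knockout embryoid bodies and 2.18% higher. Of 12 mesenchyme markers, 9 were 2-fold or more lower in knockout embryoid bodies, with a log2 summed signal of 10.64 in the knockout and 14.54 in the control. Col3a1, a fibrillar collagen, read 7.24 in knockout and 13.02 in control embryoid bodies, while the mesenchymal transcription factor Twist1 read 8.37 in the knockout and 8.05 in the control. Of 6 endothelial markers, 5 were lower, with summed signals of 9.06 in the knockout and 10.51 in the control. Of 8 visceral endoderm markers, 4 were lower, at 13.45 in the knockout and 14.59 in the control.

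Markers of the primitive streak and definitive endoderm were higher in the same knockout array. All 6 measured streak markers of 7 on the array were 2-fold or more higher in knockout embryoid bodies, with a summed signal of 10.93 in the knockout and 9.23 in the control. Of 6 definitive endoderm markers, 5 were higher, at 12.49 in the knockout and 11.05 in the control. Gsc is in both lists and is counted in each. Gsc read 6.79 in knockout embryoid bodies and 4.64 in the control, below the floor, a bound of 2.08. Of 8 epiblast markers, 3 were higher, at 12.55 in the knockout and 11.43 in the control. The part of these cell type differences in the values of Dkk1, Frzb, Sfrp1, Sfrp5, Fzd5, Fzd8, Dkk2, Dkk3 and Wnt2 was not tested. In these bulk samples, fewer cells of a type and less RNA per cell cannot be told apart.

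Snail factors bind the E-box CAGGTG, which reads as CACCTG from the opposite strand, so the 250 bases before the start of each gene were searched for it on both strands in the RefSeq promoter table (GRCm38.p6). The table held 26 of the 40 genes, among them 6 of the 9 genes that differed 2-fold in embryoid bodies. The E-box was in 17.2% of all 32851 promoters and in 9 of the 29 promoters of the set, or 31%. Among the 6 genes it was in Fzd5, 20 bases before the start, and in Sfrp5, 229 bases before it, and it was not in Dkk1, Frzb, Dkk2 or Wnt2. The other genes of the set with the E-box were Wnt2b, Wnt3a, Wnt4, Wnt5b, Wnt9b and Wnt10b, none called in embryoid bodies. Wnt4 differed by 0.68 there and the rest lay below the floor in both genotypes. The TCF/LEF motif CTTTGAT, which reads as ATCAAAG from the opposite strand, was in 3.21% of all promoters and in 2 of the 29, those of Wnt5b and Wnt11. A match is letters in a window and shows no binding, and no binding was measured here.

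The sequences of Fzd5, Sfrp5, Dkk1 and Frzb are shown because all of them were higher in knockout embryoid bodies while the first pair holds the Snail-type E-box in this window and the second pair does not. Each is written 5′ to 3′ along the gene's own strand, with the E-box in capitals. All 4 genes lie on the minus strand. Fzd5 is at chr1:64737751-64738000, Sfrp5 at chr19:42202253-42202502, Dkk1 at chr19:30549497-30549746 and Frzb at chr2:80447397-80447646, in GRCm38.p6 coordinates of the 250 upstream bases.
Fzd5: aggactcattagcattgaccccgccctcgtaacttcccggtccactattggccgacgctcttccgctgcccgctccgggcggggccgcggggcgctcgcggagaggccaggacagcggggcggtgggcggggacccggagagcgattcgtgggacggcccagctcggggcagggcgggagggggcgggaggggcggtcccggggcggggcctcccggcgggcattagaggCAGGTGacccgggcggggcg
Sfrp5: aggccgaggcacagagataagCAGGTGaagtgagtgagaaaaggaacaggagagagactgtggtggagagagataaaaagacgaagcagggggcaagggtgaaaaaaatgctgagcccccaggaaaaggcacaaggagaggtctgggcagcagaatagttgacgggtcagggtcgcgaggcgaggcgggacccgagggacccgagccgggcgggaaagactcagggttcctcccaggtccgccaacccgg
Dkk1: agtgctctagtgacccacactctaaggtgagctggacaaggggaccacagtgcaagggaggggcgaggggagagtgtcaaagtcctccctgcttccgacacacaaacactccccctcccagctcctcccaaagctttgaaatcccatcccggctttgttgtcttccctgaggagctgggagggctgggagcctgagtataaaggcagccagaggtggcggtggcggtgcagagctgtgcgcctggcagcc
Frzb: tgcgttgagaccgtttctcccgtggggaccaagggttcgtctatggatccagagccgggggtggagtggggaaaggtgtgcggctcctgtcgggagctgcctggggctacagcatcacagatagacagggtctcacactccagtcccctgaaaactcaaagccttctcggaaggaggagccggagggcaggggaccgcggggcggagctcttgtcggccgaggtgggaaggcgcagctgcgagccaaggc

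**Figure D3:**
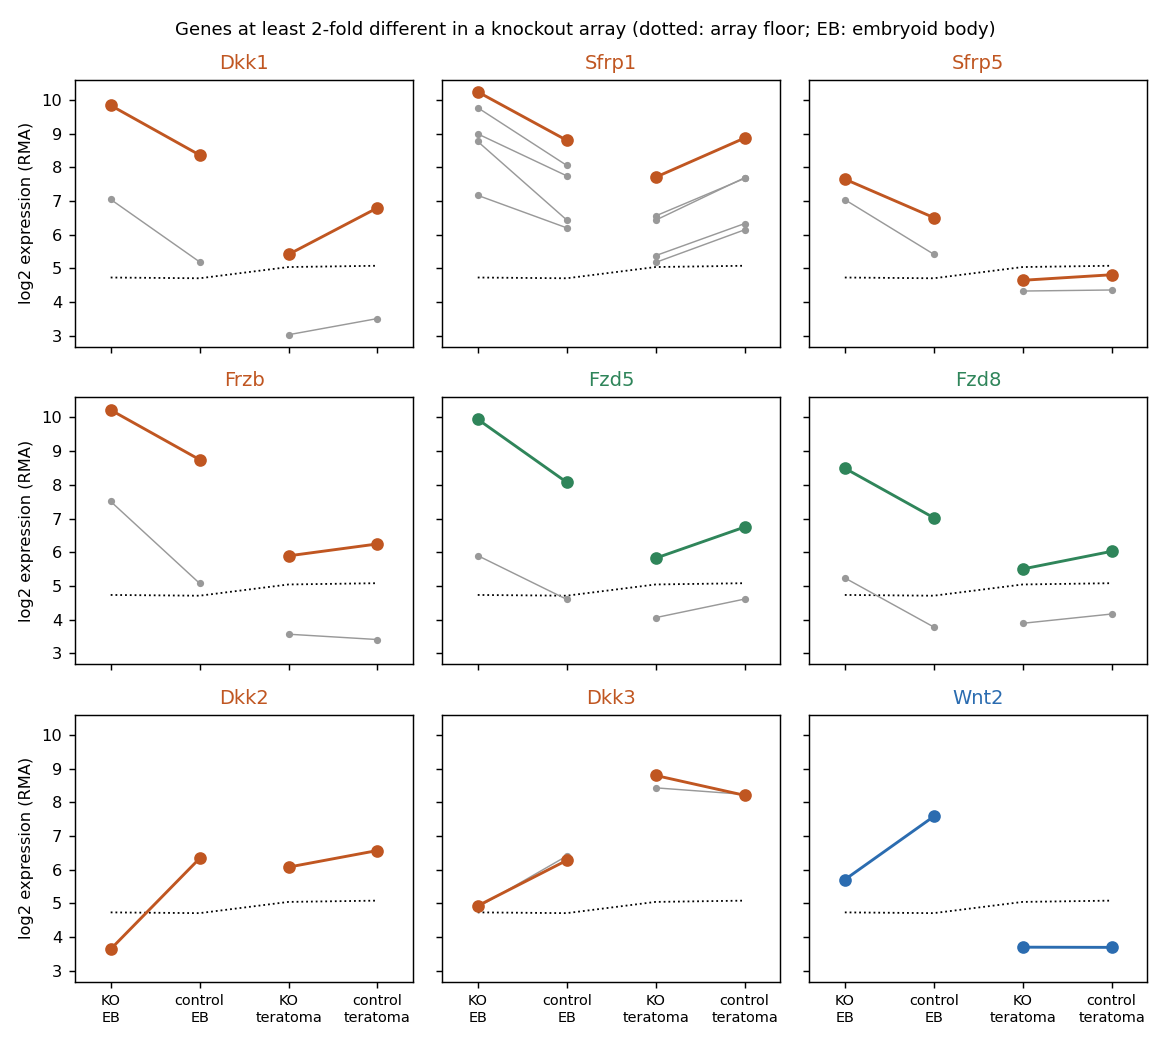
Log2 expression (y axis) on the 4 arrays of the 9 genes that differed 2-fold or more between knockout and control in at least 1 tissue, 1 panel per gene. Large coloured points are the probe set that stands for the gene (orange inhibitors, green receptors, blue the ligand), small grey points its other probe sets, and the dotted line the floor of each array. Dkk1 is highest in knockout embryoid bodies and lowest in knockout teratomas, and Wnt2 is below the floor in both teratomas.

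In week 6 teratomas, no gene of the set was 2-fold higher in the knockout and 2 inhibitors, Dkk1 and Sfrp1, were 2-fold lower. Of the 40 genes, 25 reached the floor in the knockout, the control or both. The count of 0 higher genes stood beside 3.25% of all 12197 genes measured, and the 2 lower genes, 8% of the 25, beside 1.07% of all genes. Most of the set lay slightly to the low side: 22 of the 25 differences were below 0 and 3 above, with a median of -0.40, while the median over all genes was 0.065. The 3 above 0 were Dkk3, Fzd9 and Lrp6.

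Dkk1 read 5.42 in knockout and 6.80 in control teratomas, 2.60-fold lower in the knockout. The knockout value lay near the floor and the other Dkk1 probe set lay below the floor in both tumours. The mean of its probe sets therefore gave a bound of -0.11, and a floor at the 65th percentile gave a bound of -0.35. Sfrp1 read 7.71 in knockout and 8.87 in control teratomas, 2.24-fold lower, and its 5 probe sets differed by -1.26 to -0.95. All 5 Sfrp1 probe sets were therefore lower in the knockout. The pooled SD between probe sets was 0.32 over 9 genes of the set in this comparison.

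The remaining inhibitors differed by less than 2-fold in teratomas. Sfrp2 read 8.07 in knockout and 8.82 in control teratomas. Frzb read 5.89 in knockout and 6.25 in control teratomas, and Dkk2 read 6.08 in the knockout and 6.57 in the control. Dkk3 was the inhibitor with a positive difference, at 8.79 in knockout and 8.21 in control teratomas. Its other probe set differed by 0.19. Sfrp5 was below the floor in both teratomas, at 4.65 in the knockout and 4.81 in the control.

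Among receptors, Fzd2 and Fzd5 came closest to 2-fold. Fzd2, which also transmits signals of Wnt5a, read 8.24 in knockout and 9.17 in control teratomas, and its 3 probe sets differed by -1.25 to -0.78. Fzd5 read 5.82 in knockout and 6.75 in control teratomas. Both differed by -0.92, and both passed 2-fold when the 4 arrays were quantile normalized, which gave 4 lower genes in place of 2, beside 1.69% of all genes. Fzd6, a receptor of planar polarity, read 8.55 in knockout and 9.33 in control teratomas. Fzd8 read 5.5 in knockout and 6.03 in control teratomas. The median over the 11 measured receptors was -0.40.

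All 8 measured ligands were below 0 in teratomas, between -0.86 and -0.03, and none was called. The lowest was a bound for Wnt8b, a ligand of the developing forebrain, which read 4.81 in knockout teratomas, below the floor, and 5.90 in control teratomas. Wnt4 read 8.06 in knockout and 8.52 in control teratomas. Wnt7a, Wnt7b and Wnt5a differed by -0.06, -0.03 and -0.07, so these ligands were nearly level between the genotypes. For Wnt7a this rests on a single probe set, since its others lay below the floor on all 4 arrays. Wnt2 was below the floor in both teratomas, at 3.70 in the knockout and 3.69 in the control.

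Cell type markers differed between the teratomas too. Over all genes, 3.25% were 2-fold or more higher in knockout teratomas and 1.07% lower. Of 8 leukocyte markers, 4 were 2-fold or more higher in the knockout, with a log2 summed signal of 12.23 in the knockout and 11.26 in the control. Of 8 neuronal markers, 4 were higher, at 13.93 in the knockout and 13.42 in the control, and of 5 glial markers on the array, 3 were higher, at 13.03 in the knockout and 12.25 in the control. Of 12 mesenchyme markers, 3 were lower and 1 higher, at 14.34 in the knockout and 15.03 in the control. Of 8 gut epithelium markers, 2 were lower, at 9.89 in the knockout and 11.55 in the control, with 4 below the floor in the knockout. The 2 were Tff1 and Gkn1, while Tff3 and Lgals4 were level, at 0.006 and -0.05. The part of these cell type differences in the low values of Dkk1, Sfrp1 and the other genes of the set was not tested.

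Set side by side, the knockout-minus-control differences of the same gene often had opposite signs in the 2 settings, which share no array. Of the 23 genes measured in both, 15 were above 0 in embryoid bodies and below 0 in teratomas, 2 had the reverse order, 5 were below 0 in both and 1 was above 0 in both. The opposite-sign share was 73.9%, against 52.7% over all 11187 genes measured in both. Dkk1 differed by 1.47 in embryoid bodies and -1.38 in teratomas, and Sfrp1 by 1.44 and -1.16. They were 2 of 21 genes in all that passed 2-fold in opposite directions, and 2 of 5 that were higher in embryoid bodies and lower in teratomas.

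The receptors Fzd5, Fzd2, Fzd6 and Fzd7 showed the same arrangement below 2-fold on the teratoma side. Fzd5 differed by 1.87 in embryoid bodies and -0.92 in teratomas, and Fzd2 by 0.49 and -0.92. Dkk3 was reversed, at -1.35 in embryoid bodies and 0.59 in teratomas. Across the 23 genes, Pearson's r between the settings was -0.62 and Spearman's rho -0.61, and across all genes they were 0.019 and -0.061. These describe genes read on the same 4 arrays, and genes are not independent replicates.

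**Figure D4:**
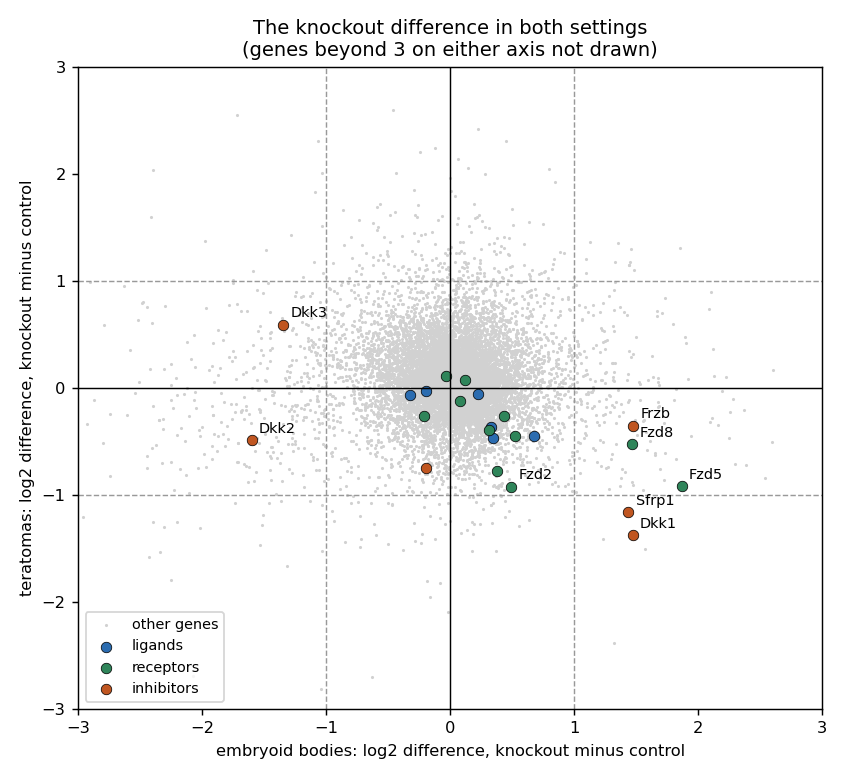
Log2 difference, knockout minus control, in embryoid bodies (x axis) and teratomas (y axis) of the 23 genes measured in both settings. Grey points are the 11187 genes measured in both, except those beyond the axis limits, which are not drawn. Dashed lines mark 2-fold, and blue is ligands, green receptors and orange inhibitors. Dkk1 and Sfrp1 lie in the lower right corner beyond both lines, and 15 of the 23 genes lie in the lower right quadrant.

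Many genes of the set differed by tissue as well. These comparisons use the same 4 arrays as those above, so they are not further evidence on the genotypes. Against knockout embryoid bodies, knockout teratomas had 6 genes of 28 measured 2-fold or more higher, 21.4%, and 10 lower, 35.7%. Over all genes the shares were 19.8% higher and 19.8% lower, so the higher count is near that share. Against control embryoid bodies, control teratomas had 8 higher and 8 lower of 28, 28.6% each. Over all genes the shares there were 16.2% higher and 19.0% lower. The medians over all genes were -0.15 for the knockout and -0.18 for the control, and they became -0.46 and -0.55 when the arrays were shifted to equal medians. With that shift, the control comparison had 5 higher and 10 lower genes of 28, beside 11.8% higher and 31.6% lower over all genes, and the lower count is near that share.

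The 6 genes with the largest tissue difference in either genotype, among those above the floor on all 4 arrays, were Dkk1, Frzb, Fzd5, Dkk3, Fzd8 and Fzd7. Dkk1 was 21.4-fold lower in knockout teratomas than in knockout embryoid bodies and 2.96-fold lower in control teratomas than in control embryoid bodies. Frzb was 20.1-fold lower between the knockouts and 5.66-fold lower between the controls. Fzd5 was 17.4-fold lower between the knockouts and 2.51-fold lower between the controls. For all 3, the teratomas were the lower tissue in both genotypes. The 6 are set by the knockout comparison. By the probe set that stood for each gene, Fzd3, Sfrp2 and Wnt4 differed more between the controls than Fzd7, Dkk1, Fzd5 or Fzd8.

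Fzd8 was 7.94-fold lower in knockout teratomas and, at a difference of -0.997, just inside 2-fold in control teratomas. Fzd7 read 7.73 in knockout and 8.17 in control teratomas, and was 6.80-fold lower between the knockouts and 3.46-fold lower between the controls. Dkk3 was the opposite, at 14.6-fold higher in knockout teratomas and 3.81-fold higher in control teratomas. Sfrp2 and Fzd3 were also higher in teratomas of both genotypes, by the probe sets that stood for them. The differences were 1.61 and 1.65 between the knockouts and 2.16 and 2.35 between the controls, where Wnt4 was higher by 1.83. Another Fzd3 probe set was lower in teratomas. It read 7.33 in knockout and 7.16 in control embryoid bodies, and 6.94 in knockout and 6.56 in control teratomas. With the mean of its probe sets, Fzd3 was not called in either tissue comparison. Sfrp1 was lower by tissue in the knockout, at -2.53, and nearly level in the control, at 0.066.

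Of the 21 genes above the floor on all 4 arrays, 12 had their highest value in knockout embryoid bodies, 57.1% against 35.9% of the 10434 genes of that kind. Another 6, or 28.6%, were highest in control teratomas, against 12.5% of all such genes. Control embryoid bodies held the highest value of 2 genes and knockout teratomas that of 1, Dkk3.

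Beyond the ligands, receptors and inhibitors of the set, 83 pathway genes in 8 lists were on the array, with each gene counted once. In embryoid bodies, 6 of the 67 measured were 2-fold or more higher in the knockout and 6 lower, 8.96% each, with a median of 0.12. Over all genes, 2.18% were higher and 3.98% lower there. In teratomas, 1 of 68 was higher, 1.47%, and 4 were lower, 5.88%, with a median of -0.20. Over all genes, 3.25% were higher and 1.07% lower in teratomas. Those shares over all genes also stand beside the list counts below. The medians of the 8 lists lay between -0.14 and 0.28 in embryoid bodies and between -0.61 and -0.04 in teratomas.

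Among genes that beta-catenin signalling is known to switch on, 3 of 12 measured were higher in knockout embryoid bodies and 2 lower, with a median of 0.28. Lgr5, an R-spondin receptor as well as a target, read 7.49 in knockout and 5.76 in control embryoid bodies. Sp5 read 8.65 in knockout and 7.0 in control embryoid bodies, and Ascl2 read 7.0 in the knockout and 5.34 in the control. Cdx2, a regulator of posterior identity and trophoblast, read 6.19 in knockout and 7.88 in control embryoid bodies, and Apcdd1 read 7.12 in the knockout and 8.13 in the control, with its probe sets spread between -1.003 and 0.16. Axin2, the most widely used target, read 7.15 in knockout and 6.66 in control embryoid bodies, and 7.15 in knockout and 7.61 in control teratomas. In teratomas, none of 10 measured targets was higher and 1 was lower, with a median of -0.29. That target was Nkd1, a feedback inhibitor, at 6.92 in the knockout and 8.01 in the control.

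Of the list of other inhibitors, outside the Frzb, Sfrp and Dkk families, 5 were measured in embryoid bodies. There, 1 was higher in the knockout and 1, Apcdd1, lower. The list median of 0 is the bound for Draxin, which read 3.93 in knockout embryoid bodies, below the floor, and 4.71 in the control, at the floor. Cer1, placed in this list, encodes an inhibitor of Nodal and BMP ligands from endoderm. Cer1 read 8.37 in knockout and 6.72 in control embryoid bodies and was the higher gene. Of 7 measured in teratomas, 2 were lower in the knockout. Sostdc1 read 5.72 in knockout and 6.84 in control teratomas, and Draxin read 5.79 in the knockout and 7.04 in the control. Of the R-spondins, secreted proteins that strengthen Wnt signals, Rspo1 read 4.20 in knockout embryoid bodies, below the floor, and 6.07 in control embryoid bodies, a bound of -1.33. Lgr6 was the pathway gene higher in knockout teratomas, at 6.66 against 5.46 in control teratomas.

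Few genes acting inside the cell differed 2-fold. Of the 14 measured genes of cytoplasmic signalling, none differed 2-fold in embryoid bodies by the probe set that stood for it. The list median was 0.044. Other probe sets of Ctnnb1, the beta-catenin gene, and of Gsk3b passed 2-fold there. The 3 Ctnnb1 probe sets ranged between 0.17 and 1.68, and the 5 of Gsk3b between -1.13 and 0.31. In nuclear signalling, Tle2, a co-repressor that binds TCF factors, read 6.53 in knockout and 5.42 in control embryoid bodies and was the 1 gene of 11 called. In the planar polarity list, Celsr2 read 5.94 in knockout and 4.93 in control embryoid bodies, and Daam2 read 5.19 in the knockout and 6.77 in the control.

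**Figure D5:**
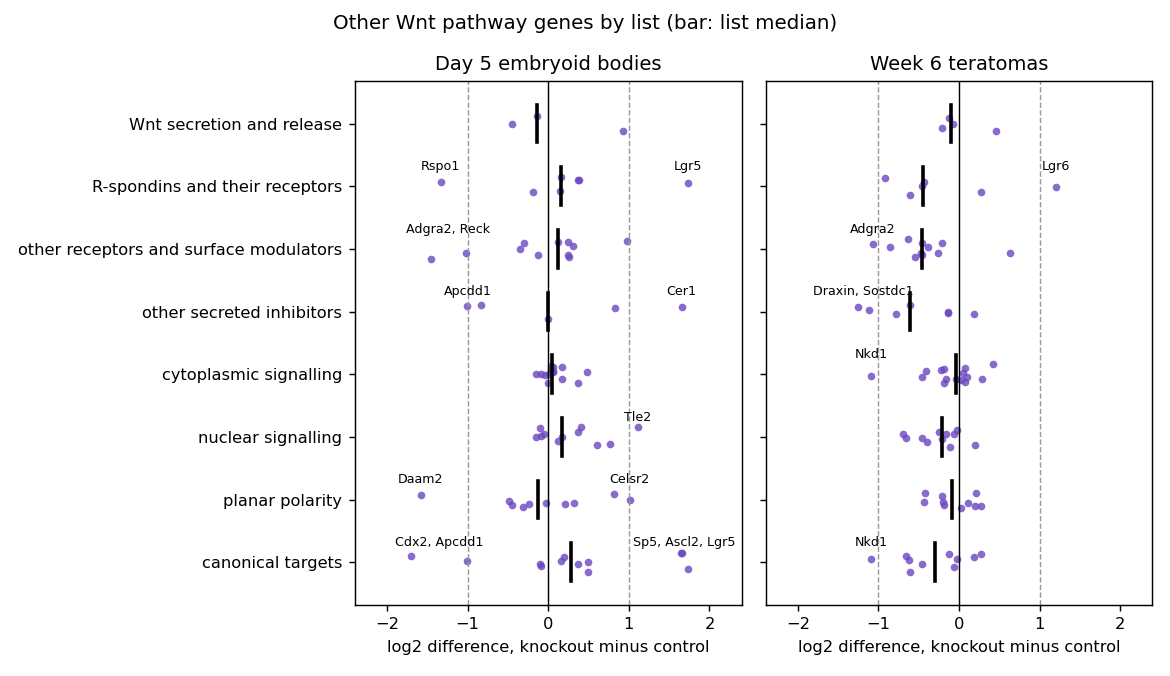
Log2 difference, knockout minus control (x axis), of the other Wnt pathway genes in 8 lists (rows), in embryoid bodies and teratomas. Each point is a gene, the black bar is the list median, dashed lines mark 2-fold, and genes beyond them are named; a gene in several lists is drawn in each. In embryoid bodies Lgr5, Sp5, Ascl2, Cer1, Tle2 and Celsr2 lie beyond 2-fold on the right, and in teratomas Lgr6 alone does.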

How the data were processed

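Per the labels' protocols, biotin-labelled RNA was amplified from 250 ng of total RNA and hybridised. The deposited values are on the log2 scale, 1 for each probe set and array, and were made by the authors with affy and RMA, according to the submitters' processing notes. Tool versions, chip definition and joint or separate normalization of the arrays: not given in the sources used here.

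Genes were named from the array platform's annotation. Of 45037 non-control probe sets, 34945 named 1 gene, 932 several and 9160 none in the table used here, and those with several were left out. The probe set with the highest mean of the 4 values stood for its gene. The floor was the 50th percentile of each array. With 1 array per group, differences were described by size, with no test, and the number of arrays limits the precision. A list is described by its counts and its median, with bounds entered at their bound. A summed signal is the log2 of the sum of unlogged values over a list's genes, so the genes with the highest readings weigh most. List genes with no single-gene probe set in the annotation were not analysed here.

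Values on all arrays are given for genes of the set called in a knockout comparison, for the 6 with the largest tissue differences and for the Snail family; others are given by range or single values, with up to 6 of each list. The members, lists, floor and threshold were chosen with earlier results of these data known. Alternatives changed the probe set rule, floor, scaling and threshold. Promoters came from RefSeq. Scripts (Python 3.11.15, pandas 2.3.3, numpy 2.4.6) were tested on simulated data.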

Additional observations from a re-analysis of the deposited data

Results flagged for a closer look

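Dkk1 and Sfrp1 stood out because their knockout arrays differed 2-fold or more from the control in opposite directions in embryoid bodies and teratomas. The difference in embryoid bodies less that in teratomas was 2.85 log2 units for Dkk1 and 2.60 for Sfrp1. The Dkk1 difference in teratomas shrank to bounds of -0.11 with the mean of probe sets and -0.35 with the 65th percentile floor. The Sfrp1 difference there stayed beyond 2-fold in all 7 alternatives of probe set rule, floor and scaling. With 1 array per group, the difference between the settings was not tested.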

How the results depend on the processing

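Across 7 alternatives of probe set rule, floor and scaling, the 6 genes called higher in knockout embryoid bodies were called in each. Of 72 recomputed counts, 56 stayed within 1.5 times the value reported and 16 moved. Shares over all genes stand in brackets. With the mean of a gene's probe sets, teratomas had 1 lower gene (0.778%), and the control tissue comparison had 5 higher (13.3%) and 5 lower (15.9%). With the floor at the 65th percentile, embryoid bodies had 1 lower gene, Wnt2 (3.19%), and teratomas 1, Sfrp1 (0.782%), while the tissue comparisons had 3 higher genes in the knockout (17.3%) and 5 in the control (13.2%). Those calls fall by construction, since fewer values clear a higher floor. Quantile normalization gave 4 lower genes in teratomas (1.69%), and shifting arrays to equal medians gave 5 higher genes in the control tissue comparison (11.8%). The cause was not tested. At a threshold of 1.5-fold, teratomas had 1 higher gene, Dkk3 (10.3%), and 7 lower (5.05%). At 3-fold, embryoid bodies had 1 higher gene, Fzd5 (0.513%), and teratomas 0 lower (0.221%). The tissue comparisons then had 3 higher genes in the knockout (13.0%), and 5 higher (10.1%) and 4 lower (6.99%) in the control. Of 151 recomputed differences and medians, 138 moved by less than the pooled SD between probe sets and 13 moved further. No called difference changed sign, but the ligand median in embryoid bodies did, at -0.038 with the mean of probe sets and -0.068 with the floor at the 65th percentile. No paired analysis was possible because each group has 1 array. The precision of every difference is limited by that number, and genes near the floor are the least certain.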

Other observations

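Adgra2, an adhesion receptor that acts with Reck in Wnt7a and Wnt7b signalling in the brain vasculature, read 7.70 in knockout and 9.16 in control embryoid bodies, and 6.17 in knockout and 7.24 in control teratomas. It was lower by 2-fold or more in both settings, unlike Dkk1 and Sfrp1. Reck read 8.76 in knockout and 9.79 in control embryoid bodies, 2-fold lower, and 7.20 in knockout and 7.41 in control teratomas, less than 2-fold apart. Wnt7a read 5.53 in knockout and 5.30 in control embryoid bodies, and Wnt7b read 6.41 in the knockout and 6.61 in the control. Endothelial markers were also lower in knockout embryoid bodies, 5 of 6 by 2-fold or more. In teratomas, 0 of 6 endothelial markers were 2-fold lower, but 5 lay below 0 and 1 above, with a median of -0.35. Their part in the Adgra2 values was not tested.

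Porcn, the enzyme that adds the lipid Wnt ligands need for release, read 8.59 in knockout and 7.66 in control embryoid bodies, and 7.87 in knockout and 7.40 in control teratomas, below 2-fold in both.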
